A study of Mus musculus with 107 samples.

Results

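4T1 is a mouse mammary carcinoma cell line that grows as an aggressive tumor in BALB/c mice. The data described here are the 6 day 8 tumors of this model among the 107 sequenced tumors of 12 syngeneic models, that is, tumors of mouse cell lines grown in mice of a matching strain. They were chosen by their sample labels, as the 3 tumors of 4T1 treated with lenvatinib (LEN, numbered 2, 4 and 5) and the 3 tumors of 4T1 left without treatment (NT, numbered 1, 2 and 3), and all genes were examined. The cells were implanted under the skin of 7-week-old female BALB/cAnNCrlCrlj mice, treatment began at a tumor volume of about 100 mm3, LEN was given by mouth once daily at 10 mg/kg for 7 days, and both groups were collected on day 8. The NT mice received no vehicle that the labels name. A further 3 treatment-naïve tumors of 4T1, collected at the start of treatment, are given beside them as a reference for tumor growth without a test. The question was which genes differed between LEN and NT tumors of this single model. The animal of each tumor is not named in the labels, so p-values measure the spread between samples. That spread is taken from these 6 tumors or, for most p-values below, from 72 tumors of all 12 models.

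LEN inhibits receptor tyrosine kinases, enzymes at the cell surface that pass on growth signals. Its targets are the receptors for vascular endothelial growth factor (VEGF) on endothelial cells, the receptors for fibroblast growth factor (FGF), the α receptor for platelet-derived growth factor (PDGF), KIT and RET. VEGF made by tumor and stromal cells binds VEGF receptor 2 (Kdr) on the endothelium of a vessel, and this signal drives the sprouting of new vessels, led by tip cells, and keeps young vessels alive. Pericytes wrap the endothelium, and a shared basement membrane of laminin, collagen IV and nidogen lies between these cells. 4T1 tumors are known for rich infiltrates of macrophages and neutrophils beside the epithelial tumor cells. Whole tumor tissue was sequenced, so a lower value can come from fewer cells of a type or from less RNA per cell, and these cannot be told apart.

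The libraries were made after depletion of ribosomal RNA, and the authors deposited gene expression as TPM, a relative unit of transcript abundance with a fixed sum per library from which sequencing depth cannot be recovered. The nuclear protein-coding genes took 39.4%, 42.6% and 44.6% of TPM in the NT tumors, 43.8% and 42.5% in LEN tumors 2 and 5, and 27.2% in LEN tumor 4. That last share was the lowest of the 107 tumors. The non-coding RNA gene Gm26917 alone took 24.2% of TPM in LEN tumor 4, whereas in the other 8 tumors of 4T1 the leading gene was Rn7s1, at 12.6% to 20.9%. The protein-coding genes of the mitochondrial genome took 0.343% of TPM in LEN tumor 4 and 1.12% to 2.27% in the other day 8 tumors. For this reason TPM was rescaled in each tumor so that the 21828 nuclear protein-coding genes summed to 1000000. All levels below are in this unit, called coding TPM, and are listed in the order NT tumors 1, 2, 3 and LEN tumors 2, 4, 5. Changes are differences of the mean log2(coding TPM + 1) between LEN and NT with their standard error, a scale that understates the change of genes near 0.

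**Figure D1:**
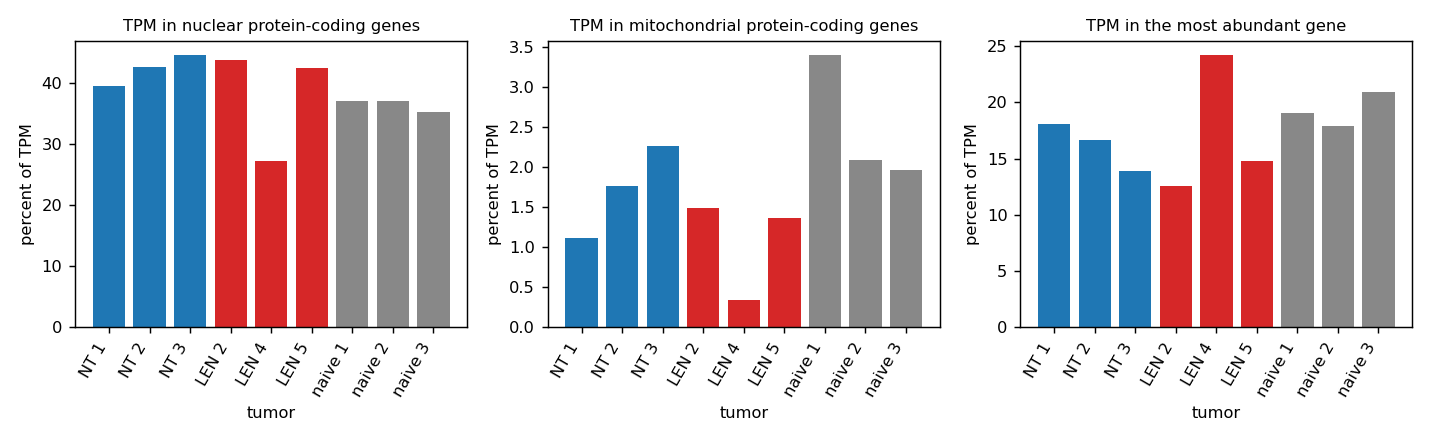
Library composition of the 9 tumors of 4T1, with 1 bar per tumor (NT and LEN on day 8, and treatment-naïve tumors). The panels show the percent of deposited TPM in nuclear protein-coding genes, in mitochondrial protein-coding genes and in the single gene with the highest TPM; LEN tumor 4 had the lowest share in both gene classes (27.2% and 0.343%) and the highest leading gene (24.2%).

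The epithelial identity of the line was present in every tumor. The keratins of simple epithelium were abundant, with Krt18 between 1101 and 1388 coding TPM and Krt8 between 719 and 1077 coding TPM in the day 8 tumors. Gata3, a transcription factor of mammary luminal cells, was at 159, 124 and 128 in the NT tumors and 166, 167 and 186 in the LEN tumors. Esr1, the estrogen receptor gene, was at 18 to 26 coding TPM over the 6 tumors.

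With the spread estimated from these 6 tumors alone, limma called 0 protein-coding genes at a Benjamini-Hochberg adjusted p under 0.05. Of 18489 genes tested, 2 were lower (0.0108%) and 1 was higher (0.00541%). Those 2 were the processed pseudogenes Gm8129 and Gm9775, listed at 0 in all LEN tumors. The higher one was the small nucleolar RNA gene Gm24787, at 39.4, 51 and 37.3 coding TPM in the LEN tumors and listed at 0 in the NT tumors. The number of reads behind these values is unknown. Gm24787 stayed called with any 1 tumor left out. The other genes called in those fits were mostly small RNA genes and changed with the tumor left out. At an unadjusted p under 0.05, 1168 genes were lower and 1078 higher. Without LEN tumor 4, 7 genes were lower and 4 higher in this fit, and the coding genes among them were Hba-a2 (adjusted p = 0.0176) and Igfbp3 (adjusted p = 0.0486). The 3 LEN tumors were all below the 3 NT tumors for 2107 genes (11.4%) and all above them for 1999 genes (10.8%). These shares are the background for the counts of non-overlapping genes given for each group of genes.

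A second fit, called the pooled fit, took the spread from all 72 day 8 tumors of the 12 models. The plan had kept to the 6 tumors because the models differ in their spread. Standard errors could be smaller or larger than in the 6-tumor fit, at 0.19 against 0.37 for Bub1 and 0.81 against 0.30 for Hba-a2. The pooled fit called 2242 of 20250 genes lower (11.1%) and 1546 higher (7.63%) in 4T1. Without LEN tumor 4 it called 393 lower and 322 higher, the fewest of the fits that left out 1 of the 6 tumors each, which called up to 3335 lower and 1929 higher. In what follows, "fell" and "rose" are kept for genes called in the same direction by this fit both with and without LEN tumor 4, a rule chosen after the data had been seen. By this rule 370 genes fell (1.83%) and 291 rose (1.44%), of which 319 and 266 were protein-coding. For each list below, non-overlapping genes are counted among members tested in the 6-tumor fit. Falls and rises are counted among members tested in the pooled fit. Of those that fell, 347 had LEN tumors all below NT, and of those that rose, 268 had LEN tumors all above NT. Adjusted p-values and standard errors given below are from the pooled fit with all 3 LEN tumors unless stated. Of its calls 59.2% were lower, but this split depended on scaling, at 84.9% with TPM as deposited, 79% with upper quartile scaling and 37.4% with median ratio scaling. The median change of all genes in this fit was -0.038 in coding TPM, -0.17 as deposited, -0.12 with upper quartile scaling and 0.029 with median ratio scaling, and 135 of the genes that fell and 122 of those that rose were called under every scaling. Among the coding genes described below as fallen or risen by this rule, up to the comparison with other models, those without a call under every scaling were Adgre1, Apoe, C1qb, Ccnb2, Ccnd1, Cd247, Cdk1, Cdkn2a, Clec14a, Csf1r, Cxcr2, Fap, Mki67, Mmrn2, Pdgfa, Plaur, Rgs5 and Snai2.

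Of 26 endothelial genes, 25 were tested, all 25 had a negative change, and 16 of them (64%) had LEN tumors below NT, while 0 had LEN tumors above. The genes Cd34, Gpihbp1, Cdh5, Adgrl4, Cldn5, Mmrn2, Clec14a and Kdr fell, which is 8 in all, and 0 rose. The median change of the list was -0.63, and -0.72 without LEN tumor 4. Over the 15 genes of tip cells and Notch signaling, 5 had LEN tumors below NT and 2 above, and Esm1 and Nid2 fell.

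The promoters of genes in these lists that fell are shown because factors of the ETS family, which bind cores such as CCGGAA and CAGGAA, are known regulators of endothelial genes. The 11 genes of the endothelial, tip cell and score lists that fell include 6 with an entry in the RefSeq promoter table (build GRCm38.p6, 250 bases before to 50 after the start). Either core, on either strand, was in the windows of Adgrl4, Cd34, Clec14a, Esm1 and Kdr, and not in that of Cldn5. Over 32851 windows of all genes, 14.9% held CCGGAA, 30.6% held CAGGAA and 41.4% held at least one of them, so a match is a description of the window and not a bound site. The windows of 3 genes follow, 5′ to 3′ on the strand of the gene, with core matches in capitals (TTCCGG and TTCCTG are the same cores read on the opposite strand). Esm1 is at chr13:113209409-113209708 on the plus strand, Kdr at chr5:75978406-75978705 on the minus strand and Adgrl4 at chr3:151437632-151437931 on the plus strand.
Esm1: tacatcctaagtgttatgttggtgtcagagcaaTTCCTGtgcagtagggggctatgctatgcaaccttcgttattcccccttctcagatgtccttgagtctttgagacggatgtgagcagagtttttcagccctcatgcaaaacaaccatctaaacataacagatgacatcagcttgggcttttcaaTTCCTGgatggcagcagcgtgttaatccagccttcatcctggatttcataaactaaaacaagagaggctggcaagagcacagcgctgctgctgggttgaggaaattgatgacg
Kdr: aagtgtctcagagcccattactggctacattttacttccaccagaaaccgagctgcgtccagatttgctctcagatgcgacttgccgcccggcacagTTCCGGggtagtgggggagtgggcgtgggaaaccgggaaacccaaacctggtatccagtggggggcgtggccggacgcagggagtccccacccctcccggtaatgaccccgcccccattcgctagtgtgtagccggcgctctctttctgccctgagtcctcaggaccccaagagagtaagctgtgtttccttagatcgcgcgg
Adgrl4: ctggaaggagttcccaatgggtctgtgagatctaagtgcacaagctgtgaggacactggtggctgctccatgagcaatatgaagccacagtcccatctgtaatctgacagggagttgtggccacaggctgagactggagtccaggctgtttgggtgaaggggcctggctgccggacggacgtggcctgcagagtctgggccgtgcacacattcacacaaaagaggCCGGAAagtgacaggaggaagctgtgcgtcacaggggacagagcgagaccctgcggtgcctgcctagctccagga

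The endothelial junction gene Cdh5, which encodes VE-cadherin (chromosome 8, 104101625 to 104144511), was at 32.7, 36.6 and 44.5 coding TPM in the NT tumors and at 15.5, 11.4 and 17.6 in the LEN tumors. It fell by 1.31 on the log2 scale (SE 0.21, limma adjusted p = 2.41e-05), and the groups did not overlap. Without LEN tumor 4 its change was -1.14 (adjusted p = 0.00195). The treatment-naïve tumors had 45.6, 55.5 and 61.7, above both day 8 groups.

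Gpihbp1, which carries lipoprotein lipase on capillary endothelium, was at 18, 18.2 and 33 against 3.01, 7.65 and 6.95. It had the largest change among the endothelial genes, -1.83 (SE 0.32, limma adjusted p = 8.32e-05), with no overlap. Cldn5, the tight junction claudin of endothelium, was at 7.63, 9.34 and 14.9 against 2.74, 5.15 and 2.03, a change of -1.45 (SE 0.25, limma adjusted p = 8.68e-05). Adgrl4, an adhesion receptor of endothelial cells, was at 14.7, 11.5 and 23.1 against 4.56, 5.81 and 5.84, a change of -1.39 (SE 0.32, limma adjusted p = 0.00151). Each LEN tumor was below each NT tumor for both of these genes. Cd34, a surface mucin of endothelial and progenitor cells, was at 25.8, 39.3 and 27.8 against 11.7, 9.37 and 14.6 and fell by 1.31 (SE 0.22, limma adjusted p = 4.47e-05). Clec14a and Mmrn2, which bind each other on tumor endothelium, changed by -0.97 (adjusted p = 9.28e-05) and -0.63 (adjusted p = 0.00734), and both were under 5 coding TPM in every day 8 tumor.

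Esm1 (chromosome 13, 113209659 to 113218098), a proteoglycan made by tip cells under VEGF, was at 4.69, 3.85 and 6.55 in the NT tumors and at 0.434, 1.07 and 1.41 in the LEN tumors. It fell by 1.62 (SE 0.31, limma adjusted p = 0.000263), from a mean of 5.03 ± 1.38 to 0.971 ± 0.497 coding TPM (SD, n = 3 each). All 3 LEN tumors were also below the treatment-naïve tumors, which ranged from 2.64 to 6.79. Nid2, a basement membrane nidogen listed with the tip cell genes, was at 17.1, 14.4 and 23.6 against 7.81, 8.75 and 8.53, a change of -1.02 (SE 0.21, limma adjusted p = 0.000609) with no overlap. Dll4, the Notch ligand of tip cells, was at 9.41, 8.76 and 12 against 5.52, 6.21 and 5.98. Its adjusted p was 0.0359 with all tumors and 0.131 without LEN tumor 4, so it did not pass the rule although the groups did not overlap. Unc5b, a netrin receptor of tip cells, stood the other way, at 122, 111 and 120 against 134, 188 and 156 (adjusted p = 0.0255, and 0.306 without LEN tumor 4).

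Not all genes used as vessel markers moved. Pecam1, which encodes CD31, was at 35.4, 41.9 and 53.5 in the NT tumors and 31.5, 29.1 and 37.2 in the LEN tumors, so the groups overlapped (change -0.39, SE 0.21, limma adjusted p = 0.205). Plvap, the diaphragm protein of fenestrated endothelium, was at 43.5, 47 and 49.5 against 43, 58.3 and 36.2 (change -0.05, limma adjusted p = 0.922). Egfl7, a secreted protein of endothelium, was at 78.3, 84.3 and 79.9 against 45.2, 68.9 and 53. For Egfl7 all LEN tumors were below NT, and the adjusted p was 0.0736. Igfbp3 and Cd93, picked after their values were seen, did fall. Igfbp3, a carrier of insulin-like growth factors, was at 99.4, 115 and 119 against 31.5, 51.3 and 39.7, a change of -1.45 (limma adjusted p = 1.14e-06). Cd93, a receptor of endothelial and myeloid cells, was at 37.6, 39.1 and 45.8 against 20.2, 15.9 and 21, a change of -1.07 (limma adjusted p = 2.99e-05).

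**Figure D2:**
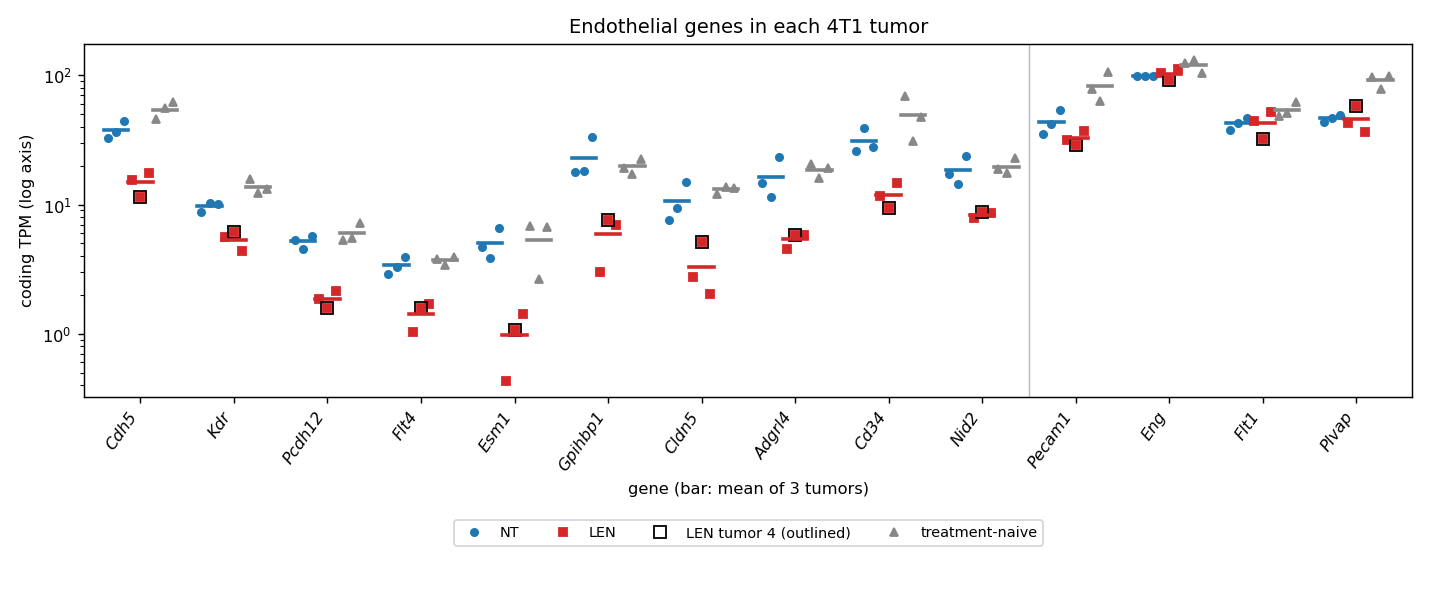
Coding TPM (log axis) of 14 vessel genes in single tumors of 4T1, with NT as blue circles, LEN as red squares (LEN tumor 4 outlined), treatment-naïve tumors as grey triangles and a bar at the mean of 3 tumors. In the left group of genes, from Cdh5 to Nid2, the LEN and NT tumors do not overlap; in the right group Pecam1, Eng, Flt1 and Plvap overlap.

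The MVD gene score of the study was built to follow microvessel density and averages the log expression of the endothelial genes Cdh5, Kdr and Tek with Eng, Pcdh12 and Sparcl1. It was computed here from log2(coding TPM + 1), the rescaled unit, in place of the study's own TPM. It was 4.22, 4.30 and 4.28 in the NT tumors and 3.56, 3.63 and 3.60 in the LEN tumors. The means were 4.27 ± 0.0426 and 3.60 ± 0.0368 (SD, n = 3 each). The difference of -0.67 had a limma p of 0.00157 in the 6-tumor fit (SE 0.13) and of 0.000112 in the pooled fit (SE 0.16). The groups did not overlap, and the change without LEN tumor 4 was -0.68. The treatment-naïve tumors scored 4.61, 4.64 and 4.72, above all day 8 tumors. Of the 6 genes Cdh5, Kdr and Pcdh12 fell. Pcdh12, a protocadherin of endothelial junctions, was at 5.28, 4.51 and 5.74 against 1.87, 1.58 and 2.14, a change of -1.11 (SE 0.19, limma adjusted p = 7.96e-05). Sparcl1, a matrix protein of vessels and stroma, was at 56.4, 59.9 and 51.3 against 34.1, 30.1 and 42.8 without overlap, with an adjusted p of 0.0151 and of 0.171 without LEN tumor 4. Eng, the TGF-β co-receptor endoglin, was at 98.9, 99 and 99.4 against 104, 91.2 and 112 (change 0.04, adjusted p = 0.932). Tek, the angiopoietin receptor, was at 2.51, 3.08 and 2.02 against 1.35, 4.59 and 1.08, where LEN tumor 4 was the highest of the 6 and the other LEN tumors were the lowest.

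Among the receptor genes that LEN targets, those of VEGF receptors 2 and 3 fell and that of VEGF receptor 1 did not. Of the 10 receptor genes, 8 were tested in the 6-tumor fit, and 3 of these had LEN tumors below NT and 1 above. Kdr (chromosome 5, 75932827 to 75978458) was at 8.73, 10.2 and 10.2 against 5.57, 6.14 and 4.33, a change of -0.76 (SE 0.19, limma adjusted p = 0.00374). Flt4, VEGF receptor 3 of lymphatic and sprouting endothelium, was at 2.92, 3.26 and 3.95 against 1.03, 1.58 and 1.7, a change of -0.85 (SE 0.16, limma adjusted p = 0.000279). In both genes each LEN tumor was below each NT tumor. Flt1, VEGF receptor 1, which is also made by macrophages, was at 37.7, 42.6 and 46.9 against 44.6, 32.3 and 51.7. Its adjusted p was 1.00, and its change was 0.18 without LEN tumor 4 and 0.03 with median ratio scaling. The FGF receptor with the highest level was Fgfr2, at 241, 217 and 262 against 306, 358 and 356. Its LEN tumors were all above NT, with an adjusted p of 0.158. Fgfr1 was at 55.9, 64 and 44.7 against 39.5, 70.9 and 54.1, and Fgfr3 was under 5 coding TPM in the 6 tumors. Fgfr4 and Ret were at or under about 1 coding TPM and were below the minimum for the 6-tumor fit. Pdgfra, the PDGF receptor of fibroblasts, was at 73.2, 73.3 and 66.4 against 62.6, 80 and 98.6, and Kit was at 6.72, 4.6 and 9.94 against 5, 4.12 and 7.68. The groups overlapped in Fgfr1, Pdgfra and Kit.

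Several ligands of these receptors rose. Of 15 angiogenic ligand genes, 13 were tested, of which 1 had LEN tumors below NT and 3 above, and those 3, Vegfa, Vegfc and Pdgfa, rose. Vegfa, the main ligand of VEGF receptor 2, was at 145, 124 and 118 in the NT tumors and 177, 333 and 353 in the LEN tumors. It rose by 1.09 (SE 0.20, limma adjusted p = 0.000159) from a mean of 129 ± 14.7 to 287 ± 96.3 (SD, n = 3 each), and LEN tumor 2 stood nearest to the NT tumors. Vegfc, a ligand of VEGF receptor 3, was at 8.95, 7.23 and 8.51 against 15.7, 38.8 and 19.5, a rise of 1.38 (SE 0.26, limma adjusted p = 0.000244). Pdgfa, a ligand of the PDGF α receptor, was at 61, 48.8 and 48.9 against 64.6, 145 and 88.4, a rise of 0.83 (SE 0.16, limma adjusted p = 0.000302). For Vegfc and Pdgfa the highest value was in LEN tumor 4, and without that tumor the changes were 1.01 (adjusted p = 0.0271) and 0.52 (adjusted p = 0.0434). Pgf, a ligand of VEGF receptor 1, was at 25.4, 20.7 and 24.9 against 24.6, 52.9 and 57.9, with overlap through LEN tumor 2 (adjusted p = 0.052). Pdgfb, which recruits pericytes, was at 33.9, 36.2 and 32.8 against 31.4, 55 and 48.3 (adjusted p = 0.178). Bmp2, a ligand of the bone morphogenetic protein receptors, had LEN tumors below NT, at 2.46, 3.1 and 2.63 in NT against 1.14, 1.62 and 1.67, and did not pass the rule.

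Some genes of the cells and matrix around vessels fell. Of 13 pericyte and smooth muscle genes, 5 had LEN tumors below NT and 1 above, and the median change was -0.24. Rgs5, Abcc9 and Kcnj8 fell, and these are genes of pericytes, the latter pair encoding the subunits of one potassium channel. Rgs5, a regulator of G protein signaling, was at 32.8, 28.1 and 34.2 against 18.1, 12.2 and 13.9, a change of -1.07 (SE 0.25, limma adjusted p = 0.00241). Abcc9 was at 6.42, 7.82 and 8.19 against 3.77, 3.57 and 3.06, a change of -0.92 (limma adjusted p = 0.00211). Kcnj8 was at 3.7, 3.76 and 5.39 against 1.32, 0.845 and 2.05, a change of -1.15 (limma adjusted p = 0.000596). None of these genes overlapped between groups. Pdgfrb, the receptor by which pericytes are recruited, was at 35.5, 39 and 31.9 against 24.4, 20.6 and 24, with an adjusted p of 0.008, and of 0.0995 without LEN tumor 4. Of 12 basement membrane genes, 4 had LEN tumors below and 2 above NT. Lama4, the laminin α4 chain of vessels, was at 35.9, 36.1 and 32.6 against 19.9, 17.8 and 19.1 and fell by 0.85 (SE 0.19, limma adjusted p = 0.00112), and Nid2, described above, is the other member that fell. Of 3 lymphatic genes tested, 1 had LEN tumors below NT, and this was Flt4.

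Transcripts of red blood cells showed the largest fall of any list. Of 5 tested red cell genes, 4 had LEN tumors below NT, and the α- and β-globin genes Hba-a1, Hba-a2 and Hbb-bs fell, with a list median of -2.47. The summed level of the list was 206 to 246 coding TPM in the NT tumors and 32.1 to 64.2 in the LEN tumors. Hbb-bs was at 74.4, 67.5 and 89.5 against 13.1, 30.1 and 5.35, a change of -2.47 (SE 0.62, limma adjusted p = 0.00373). Hba-a2 was at 87.4, 88.7 and 76.2 against 10.8, 17.3 and 6.64, a change of -2.84 (SE 0.81, limma adjusted p = 0.0105). In both genes LEN tumor 4 was the highest of the LEN tumors and still below each NT tumor. Hba-a1 and Hba-a2 are near-identical copies, so reads may have been split between them and their separate values are uncertain. The treatment-naïve tumors spread widely, from 48.5 to 325 coding TPM for Hbb-bs.

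Most hypoxia genes had a positive change, and Vegfa alone rose by the rule. Of 26 hypoxia genes tested, 22 had a positive and 4 a negative change. LEN tumors were below NT in 1 gene and above in 6 (Hk2, Ndrg1, Ero1l, Vegfa, Slc2a1 and Egln3). The share above was 23.1%, against 10.8% over all genes. The median change was 0.21. Ndrg1, a gene induced by low oxygen, was at 346, 282 and 380 against 404, 658 and 746, with an adjusted p of 0.0248, and of 0.179 without LEN tumor 4. Hk2, the hexokinase of tumor glycolysis, was at 77, 73 and 66.2 against 86.5, 124 and 119, with an adjusted p of 0.00717, and of 0.113 without LEN tumor 4. For both genes LEN tumor 2 was the LEN tumor nearest to NT. Car9, the carbonic anhydrase often used as a hypoxia marker, was at 214, 164 and 166 against 169, 238 and 312, so the groups overlapped (adjusted p = 0.444).

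Of 18 genes of the integrated stress response, by which cells answer a lack of amino acids or misfolded protein, 2 had LEN tumors below NT and 4 above. Cebpb, a transcription factor of this response and of inflammation, was at 382, 332 and 391 against 519, 1214 and 685. It rose by 1.04 (SE 0.16, limma adjusted p = 1.18e-05), and by 0.70 without LEN tumor 4, its highest tumor. Nupr1, a stress-induced chromatin protein, was at 152, 145 and 177 against 194, 286 and 266 with no overlap. Its adjusted p was 0.00156, and 0.0503 without LEN tumor 4.

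Part of the macrophage genes fell. Of 21 macrophage and monocyte genes, 11 had LEN tumors below NT, 4 had LEN tumors above, and 4 fell (Adgre1, Csf1r, C1qb and Apoe). None of these 4 was called under every scaling, and Apoe was not called without NT tumor 3 (adjusted p = 0.0954). The median change was -0.41, and the summed level was 8687 to 10590 in the NT tumors and 6415 to 7940 in the LEN tumors. The treatment-naïve sums were 5960, 5390 and 6118, below both day 8 groups. Csf1r, the receptor for the growth factor on which macrophages depend, was at 180, 169 and 183 against 117, 87.8 and 85.7. It fell by 0.88 (SE 0.19, limma adjusted p = 0.000938), without overlap. Adgre1, which encodes F4/80, was at 36.2, 36.8 and 42.6 against 25.7, 13.1 and 17.5, a change of -1.04 (SE 0.22, limma adjusted p = 0.000655). C1qb, a chain of complement C1q, was at 449, 471 and 512 against 312, 250 and 234, a change of -0.86 (SE 0.20, limma adjusted p = 0.0019). Apoe, the lipid carrier apolipoprotein E, was at 2539, 2357 and 3316 against 1597, 1816 and 1413, a change of -0.76 (SE 0.22, limma adjusted p = 0.0137). In these 3 genes, too, each LEN tumor was below each NT tumor. The treatment-naïve tumors were above the LEN tumors for Csf1r (133 to 140) and C1qb (320 to 475). They overlapped with the LEN tumors for Adgre1 (25.2 to 36.2) and Apoe (1168 to 1751).

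Among the macrophage genes with LEN tumors above NT were Nos2, Ly6c2 and Chil3, and none of these passed the rule. Nos2, the inducible nitric oxide synthase, was at 10.2, 11 and 10.2 against 13.6, 20 and 32.8 (adjusted p = 0.0694). Spp1, which encodes osteopontin and was the most abundant of the list, was at 3688, 3754 and 4385 against 3495, 2636 and 4524, so the groups overlapped. Ccr2, the chemokine receptor of incoming monocytes, was at 49.4, 66.3 and 50.1 against 47.2, 12.2 and 25.7. The adjusted p of Ccr2 was 0.00714 with all tumors and 0.27 without LEN tumor 4.

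Neutrophil genes spread widely among the LEN tumors. Of 16 neutrophil genes tested in the 6-tumor fit, 0 had LEN tumors below NT and 2 above (G0s2 and Lcn2). Members under the minimum mean of that fit are not in this count. Of 18 tested in the pooled fit, G0s2 and Cxcr2 rose and 0 fell. The summed level of the list was 622 to 781 in the NT tumors and 941 to 2036 in the LEN tumors, without overlap. This gap rested on Lcn2, without which (a setting added after the data were seen) the sums were 381 to 450.0 in the NT tumors and 443 to 912 in the LEN tumors and overlapped. G0s2, an inhibitor of lipolysis that neutrophils contain in abundance, was at 5.66, 5.54 and 3.99 against 11, 26.9 and 27.6, a rise of 1.82 (SE 0.40, limma adjusted p = 0.00103). Cxcr2, the receptor that draws neutrophils to CXC chemokines, was at 3.32, 2.32 and 2.89 against 6.18, 2.72 and 8.22. It passed the rule with a change of 0.71 (adjusted p = 0.0364), although LEN tumor 4 lay within the NT range. The call of Cxcr2 was lost without NT tumor 2 (adjusted p = 0.151), NT tumor 3 (0.0781), LEN tumor 2 (0.0984) or LEN tumor 5 (0.255). S100a8 and S100a9, the calprotectin subunits, overlapped. S100a8 was at 44.4, 47.4 and 67.7 against 40, 23.9 and 129, and S100a9 was at 77.5, 73.7 and 128 against 86.8, 61.1 and 270, so LEN tumor 5 was highest and LEN tumor 4 lowest for both. Lcn2, the iron-binding lipocalin of neutrophils and epithelium, was at 285, 241 and 331 against 498, 586 and 1124 (adjusted p = 0.0587). Csf3, the granulocyte growth factor G-CSF that 4T1 cells are known to make, was at 53.8, 54.5 and 53.9 against 71.6, 65.8 and 100. Its LEN tumors were all above NT, and its adjusted p was 0.133. Of 14 chemokine genes, 1 had LEN tumors below NT and 2 above. Cxcl3, a ligand of Cxcr2, was at 1.17, 2.51 and 3.37 against 2.74, 9.45 and 25.2 and passed the rule with a change of 1.65 (SE 0.43, limma adjusted p = 0.00564), with overlap through LEN tumor 2. Without LEN tumor 5, its highest tumor, the change of Cxcl3 was 0.96 (adjusted p = 0.108).

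Genes of lymphoid and antigen-presenting cells showed no calls by the rule. This held for 19 T and NK cell genes, 7 B cell genes, 12 genes of dendritic cells and MHC class II, and 20 interferon-stimulated genes. Over all genes 1.83% fell and 1.44% rose, so lists of this size can hold no call. In the 6-tumor fit, 13 of 17 T and NK cell genes and 15 of 20 interferon-stimulated genes had a positive change. A negative change was seen in 8 of 12 genes of dendritic cells and MHC class II and in both B cell genes tested. Among the 17 T and NK cell genes, 1 had LEN tumors below NT (Lag3) and 1 above (Foxp3). Foxp3, the transcription factor of regulatory T cells, was at 2.31, 1.85 and 1.71 against 5.25, 2.43 and 2.5 (adjusted p = 0.0945). Lck, a kinase of T cell receptor signaling, was at 6.92, 3.43 and 5.48 against 8.47, 4.93 and 8.03, and Cd274, which encodes PD-L1, was at 11.1, 16.5 and 13.6 against 16.8, 14 and 26.6, both with overlap. Cd247, the zeta chain of the T cell receptor complex and not a member of the list, did rise, from 1.42, 1.17 and 0.808 to 4.22, 9.52 and 3.77 (change 1.59, SE 0.33, limma adjusted p = 0.000637). Genes of MHC class I presentation had LEN tumors above NT in 7 of 11 (Tapbp, Psmb8, Tap2, Psmb10, Tap1, H2-K1 and H2-D1) and below in 0, with a median change of 0.54, or 0.37 without LEN tumor 4, and 0 passed the rule. H2-D1, a classical class I heavy chain, was at 1140, 1098 and 1031 against 1622, 2126 and 1740, with an adjusted p of 0.00655, and of 0.102 without LEN tumor 4. H2-K1, another classical heavy chain, was at 434, 437 and 471 against 618, 709 and 628 (adjusted p = 0.107). B2m, the light chain of every class I molecule, was at 1477, 1790 and 1909 against 1752, 751 and 1976, and LEN tumor 4 was the only LEN tumor below the NT range.

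**Figure D3:**
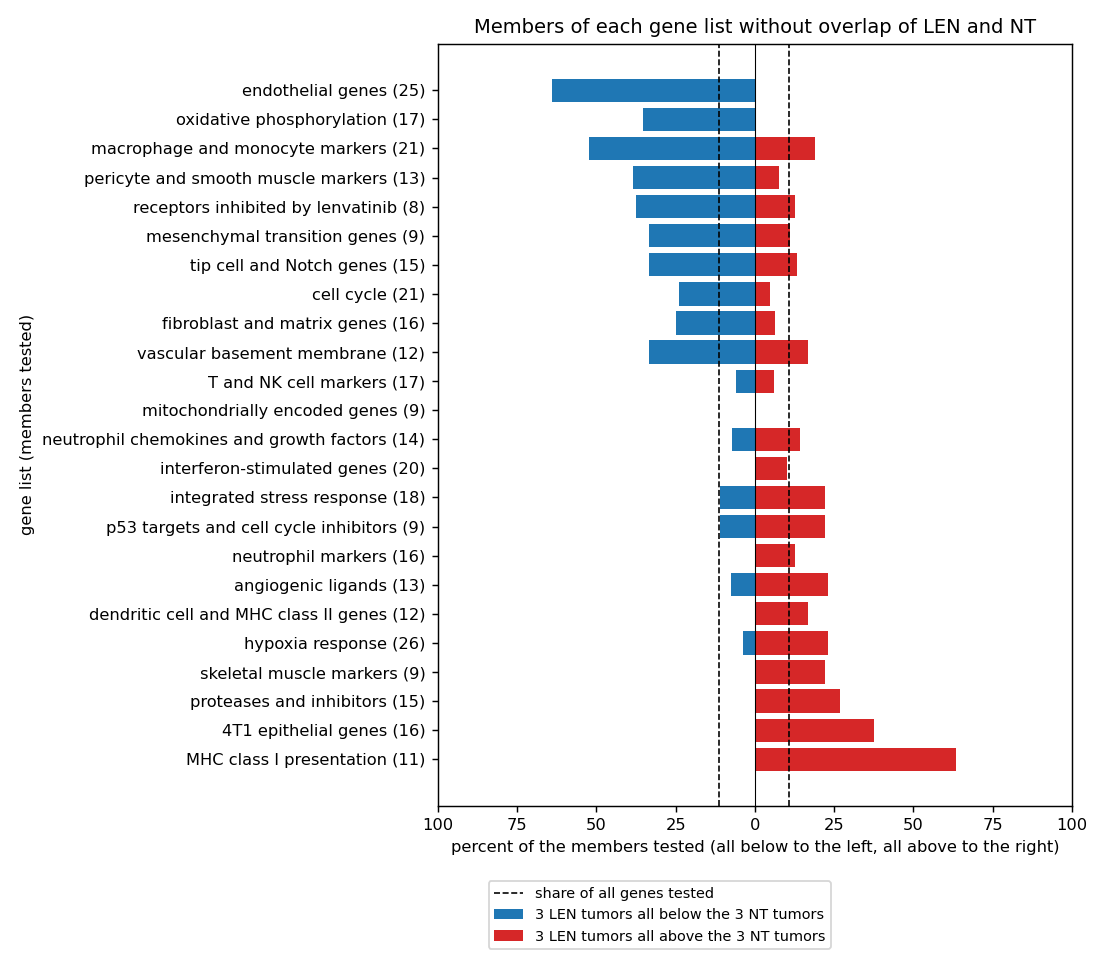
For each gene list with at least 8 tested members, the percent of members whose 3 LEN tumors were all below (left) or all above (right) the 3 NT tumors. Dashed lines mark the same percent over all tested genes (11.4% below and 10.8% above); the endothelial list reaches 64% below and 0 above.

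Fibroblast genes did not move one way. Of 16 genes, 4 had LEN tumors below NT and 1 above, and the median change was 0.15, with -0.19 without LEN tumor 4 and -0.04 in TPM as deposited. Fap, a protease of activated fibroblasts, was at 8.14, 9.2 and 5.52 against 4.15, 2.65 and 2.66 and fell by 1.05 (SE 0.24, limma adjusted p = 0.00175). Col1a1, the α1 chain of collagen I, was at 1765, 1858 and 901 against 1265, 3237 and 1207, with LEN tumor 4 highest of all. Lists of muscle (10 tested in the pooled fit), skin (5) and adipocyte genes (6), for tissue near the implant, held 0 genes that passed the rule. The summed muscle genes were at 35.5 to 125 in the NT and 63.2 to 132 in the LEN tumors. Outside the lists, Aspn, C1qtnf3 and Abca9 were among the genes with the largest falls. Aspn, which encodes the small proteoglycan asporin, was at 6.9, 14.3 and 14.1 against 2.58, 0.625 and 2.19, a change of -2.21 (SE 0.32, limma adjusted p = 6.16e-06). C1qtnf3, a secreted protein of the C1q and TNF family, was at 7.56, 7.7 and 12.3 against 1.69, 1.36 and 0.824, a change of -2.14 (SE 0.45, limma adjusted p = 0.000653). Abca9, a lipid transporter of the ABC family, was at 9.11, 10.4 and 10.5 against 3.51, 2.39 and 1.84, a change of -1.64 (SE 0.23, limma adjusted p = 3.48e-06). None of these overlapped. Of 15 proteases and their regulators, 0 had LEN tumors below NT and 4 above, and Plaur, the urokinase receptor, rose from 132, 129 and 128 to 178, 168 and 202 (change 0.49, SE 0.13, limma adjusted p = 0.00685).

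Among the epithelial genes of the tumor cells, Cldn4 alone passed the rule. Of 16 genes, 3 had a negative change, 0 had LEN tumors below NT and 6 above (Cldn7, Krt19, Epcam, Krt14, Cldn4 and Cldn3). Cldn4, a tight junction claudin of epithelium, rose from 143, 137 and 133 to 239, 430 and 322, a change of 1.22 (SE 0.25, limma adjusted p = 0.000425). Epcam, the epithelial adhesion molecule, was at 221, 211 and 224 against 267, 283 and 257 (adjusted p = 0.513). Of 9 mesenchymal genes, 3 had LEN tumors below NT and 1 above, and Snai2, a repressor of the epithelial program, fell from 2.26, 3.47 and 2.47 to 1.03, 0.735 and 1.06, a change of -0.93 (SE 0.21, limma adjusted p = 0.00114). Of 3 mammary genes in the 6-tumor fit, 2 had LEN tumors above NT, among them Gata3. Of 4 in the pooled fit, 0 passed the rule.

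Mcpt1, a mast cell protease, had the largest rise of a coding gene named here, from 9.49, 1.83 and 16 to 34.9, 45 and 63.4 (change 2.57, SE 0.44, limma adjusted p = 7.24e-05). Errfi1, a feedback inhibitor of the EGF receptor family, was at 276, 244 and 281 in the NT tumors and 479, 871 and 648 in the LEN tumors. It rose by 1.27 (SE 0.15, limma adjusted p = 3.51e-07), and by 1.06 without LEN tumor 4 (adjusted p = 5.95e-05). Wnt10a (chromosome 1, 74791516 to 74804179), a secreted WNT ligand of epithelium, was at 5.07, 6.06 and 4.78 against 13.2, 19.3 and 14.2, a rise of 1.38 (SE 0.17, limma adjusted p = 3.51e-07). The 3 LEN tumors of Errfi1 and Wnt10a were far above the NT and treatment-naïve tumors. Syt12, a synaptotagmin of vesicle traffic, was at 2.84, 2.86 and 3.1 against 5.64, 10 and 19.8, a rise of 1.55 (SE 0.27, limma adjusted p = 8.16e-05). Acpp, a secreted and membrane acid phosphatase, was at 3.63, 1.81 and 5.36 against 10.8, 9.7 and 13.9, a rise of 1.50 (SE 0.24, limma adjusted p = 2.41e-05). Myh14, a non-muscle myosin heavy chain, was at 4.84, 3.83 and 3.84 against 10.6, 30.7 and 9.92, a rise of 1.63 (SE 0.31, limma adjusted p = 0.000255). LEN tumor 4 was highest for Errfi1, Wnt10a and Myh14 but not for Mcpt1, Syt12 and Acpp, and none of the 6 overlapped.

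Some genes of proliferation fell, and in each of them LEN tumor 4 was the lowest. Of 21 cell cycle genes, 4 fell (Mki67, Bub1, Ccnb2 and Cdk1, of which Bub1 alone was called under every scaling), 5 had LEN tumors below NT and 1 above, with a median change of -0.34, or -0.19 without LEN tumor 4. Mki67, a marker of cycling cells, was at 126, 159 and 114 against 105, 41.9 and 67.4. It fell by 0.97 (SE 0.17, limma adjusted p = 9.08e-05), and by 0.64 without LEN tumor 4. Cdk1, the kinase of mitotic entry, was at 192, 225 and 190 against 173, 81.2 and 131, a change of -0.72 (adjusted p = 0.000129), and of -0.42 without LEN tumor 4. Bub1, a kinase of the spindle checkpoint, and Ccnb2, a mitotic cyclin, both fell (adjusted p = 2.53e-05 and 4.19e-05), with changes of -0.82 and -0.61 without LEN tumor 4. LEN tumor 2 was close to the NT range in all of these. Top2a, the topoisomerase of dividing cells, was at 354, 414 and 263 against 335, 236 and 229, so the groups overlapped. Ccnd1, the cyclin of early G1, went the other way, from 893, 806 and 693 to 1172, 1278 and 979, a rise of 0.52 (SE 0.11, limma adjusted p = 0.00104). Of 11 p53 pathway genes tested in the pooled fit, Cdkn1a rose, at 45.4, 41.6 and 31.2 against 46.9, 85.2 and 71.1 (change 0.74, adjusted p = 0.000169). Cdkn2a fell by the rule, at 0.457, 1.08 and 0.763 in the NT tumors and listed at 0 in the 3 LEN tumors. It was below the minimum for the 6-tumor fit.

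Histone genes, a group picked after the values were seen, were lower together. Of 64 tested, 60 had a negative change, 42 had LEN tumors below NT and 0 above, and 29 fell while 0 rose. Their median change was -0.67, and -0.52 without LEN tumor 4. The summed level was 38620, 41190 and 35640 coding TPM in the NT tumors and 32500, 24600 and 22820 in the LEN tumors. The treatment-naïve tumors had 40190, 59460 and 42230, so every LEN tumor was below every other tumor of 4T1. Hist1h2bl, a replication-dependent H2B gene, was at 498, 644 and 679 against 407, 73.4 and 251, a change of -1.61 (SE 0.27, limma adjusted p = 5.38e-05), or -0.91 without LEN tumor 4. Histone genes are a multigene family of near-identical copies whose transcripts mostly lack a poly(A) tail, and reads may have been shared among members, so single values are uncertain.

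Mitochondrial genes were listed by nuclear and mitochondrial genome, and the median change of both lists was smaller without LEN tumor 4. Of 17 nuclear genes of oxidative phosphorylation, 6 had LEN tumors below NT and 0 above, with a median of -0.29, or -0.07 without LEN tumor 4. Sdhb, the iron-sulfur subunit of succinate dehydrogenase, was at 118, 120 and 129 against 90.9, 90.8 and 83.8 and fell by 0.46 (SE 0.08, limma adjusted p = 9.28e-05), with nearly the same size without LEN tumor 4 (-0.48). Of the 9 listed genes of the mitochondrial genome 0 were free of overlap, and 0 fell by the rule. mt-Co1, a subunit of cytochrome c oxidase, was at 4629, 6601 and 7252 against 5587, 1008 and 5581, so LEN tumor 4 alone stood low. The median change of these genes was -1.01 with LEN tumor 4 and -0.28 without it.

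**Figure D4:**
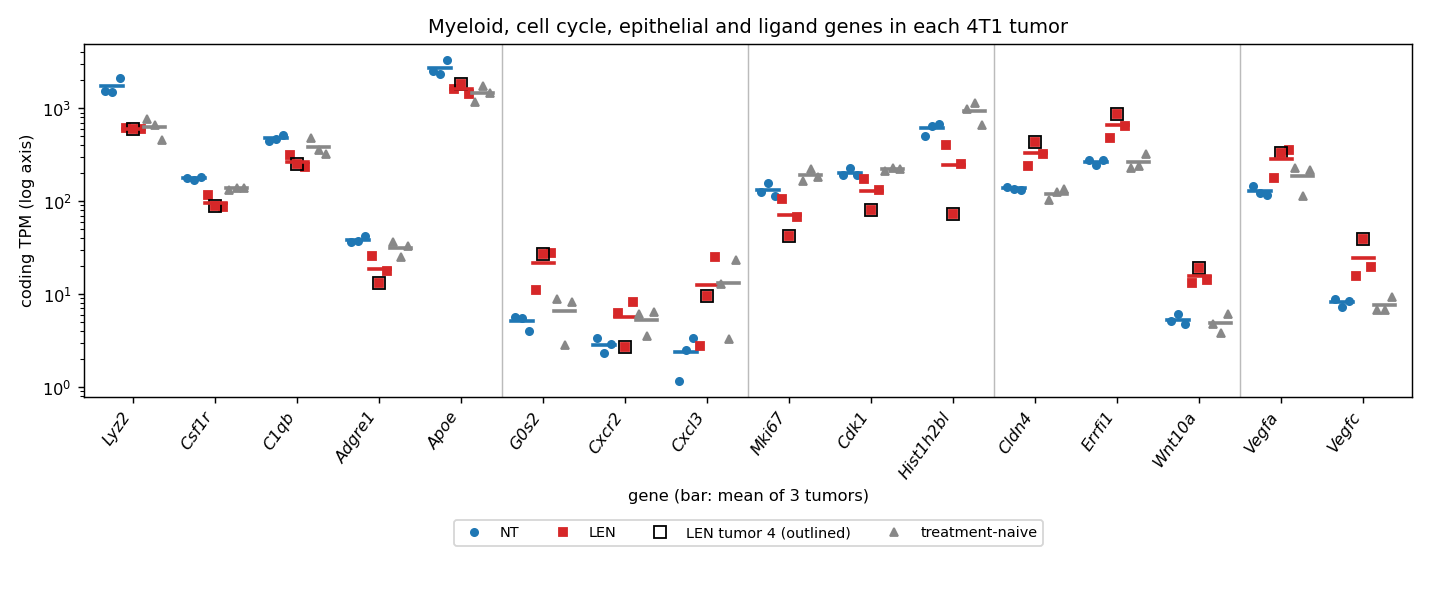
Coding TPM (log axis) in single tumors of 4T1 for genes of macrophages, neutrophils, proliferation, epithelium and signaling, and VEGF ligands, with NT as blue circles, LEN as red squares (LEN tumor 4 outlined), treatment-naïve tumors as grey triangles and a bar at the mean of 3 tumors. The LEN tumors of Lyz2 lie at 596 to 613 against 1500 to 2148 in NT, and LEN tumor 4 is the lowest for Mki67, Cdk1 and Hist1h2bl.

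Whether these changes differed from those of the other 11 models was tested as the LEN minus NT change of 4T1 minus the mean change of the others, over the 72 tumors. This difference was called lower for 1575 genes (7.78%) and higher for 1138 (5.62%) of 20250, and with and without LEN tumor 4 for 136 (0.672%) and 164 (0.81%). The balance of lower against higher calls depended on the scaling, with 1125 against 1961 under median ratio scaling, 2393 against 300 for TPM as deposited and 2734 against 676 under upper quartile scaling. The MVD gene score of 4T1 changed 0.09 less than the mean of the others (SE 0.17, 95% interval from -0.24 to 0.43), which gave a limma p of 0.573. Its rank was 7 of 12 from the largest fall, between the range ends of -1.15 in Renca and -0.30 in Hepa 1-6. For Cdh5 the difference was -0.06 (adjusted p = 0.895), for Kdr 0.06 (adjusted p = 0.899), for Esm1 0.09 (adjusted p = 0.904) and for Gpihbp1 -0.04 (adjusted p = 0.958). The median change of the endothelial list was -0.63 in 4T1, and the median of the other models' values was -0.77. Plvap differed by 0.68 (adjusted p = 0.0263), and Cd34 by -0.82 (adjusted p = 0.0121), but without LEN tumor 4 the adjusted p was 0.312 and 0.172. Unc5b of the tip cell list differed by 0.70 (adjusted p = 0.00123, and 0.0443 without LEN tumor 4). Col4a1, a collagen IV chain of the basement membrane list, differed by 1.07 (adjusted p = 0.000627, and 0.041 without LEN tumor 4).

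Differences were also called outside the vessel lists. Wnt10a changed by 1.38 in 4T1 and by -0.39 to 0.68 in the others, a difference of 1.25 (adjusted p = 6.37e-06, and 0.000735 without LEN tumor 4). Errfi1 changed by 1.27 in 4T1 and by -0.59 to 0.85 in the others, a difference of 1.07 (adjusted p = 2.35e-05, and 0.00218 without LEN tumor 4). Both changes were the highest of the 12 models. Ccnd1 differed by 0.55 (adjusted p = 0.0017, and 0.0487 without LEN tumor 4), Sdhb by -0.37 (adjusted p = 0.00255 and 0.0174) and Cdkn2a by -0.91 (adjusted p = 0.000194 and 0.00271). Cdkn2a was near 0 in 4T1, at 1.08 coding TPM or less in the day 8 tumors. Vegfc differed by 1.25 (adjusted p = 0.0019), and Cldn4 by 1.17 (adjusted p = 0.00192). Without LEN tumor 4 these latter differences had an adjusted p of 0.0972 and 0.0632. Hist1h2bl and Mki67 had the lowest change of the 12 models with all tumors, while without LEN tumor 4 the adjusted p of their difference was 0.261 and 0.523. Of the macrophage genes that fell, Adgre1 differed by -0.72 (adjusted p = 0.0283, and 0.346 without LEN tumor 4), while Csf1r, C1qb and Apoe had an adjusted p of 0.116, 0.0953 and 0.191. Cd68, a lysosomal protein of macrophages, differed by -1.07 (adjusted p = 0.00113), and the adjusted p without LEN tumor 4 was 0.104.

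**Figure D5:**
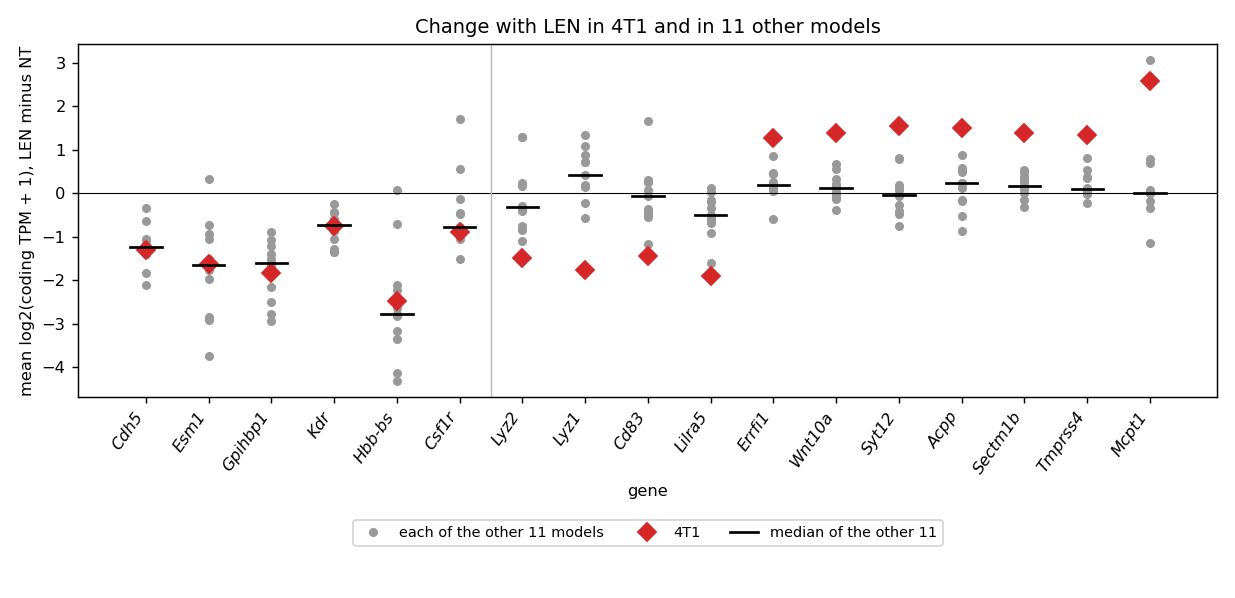
Log2 change from NT to LEN (difference of mean log2(coding TPM + 1)) of named genes in 4T1 (diamonds) and in each of the other 11 models (grey points, with a bar at their median). 4T1 lies within the range of the other models for Cdh5, Esm1, Gpihbp1, Kdr, Hbb-bs and Csf1r, and at their upper end for Errfi1, Wnt10a and Syt12.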

How the data were processed

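RNA was extracted from whole tumors with a Maxwell RSC simplyRNA kit, and libraries were sequenced on NovaSeq and NextSeq instruments (which tumor ran on which is not given in the sources used here). The authors trimmed reads with Trimmomatic 0.36, mapped them to mm10 with the Ensembl annotation by STAR 2.5.2b and deposited RSEM 1.2.31 estimates as TPM for 50686 genes. The depth of each tumor cannot be had from TPM, and with it the counting error stays unknown. Gene types for 50462 genes came from GENCODE M21.

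Here TPM was rescaled per tumor to coding TPM, as defined above. Linear models of limma 3.58.1 (R 4.3.3, two-sided moderated tests with an intensity trend of the variance) were fitted to log2(coding TPM + 1), with a pseudocount of 1 and a minimum mean of 1, on the 6 tumors, as planned, and on all 72 day 8 tumors in 24 groups. Benjamini-Hochberg adjustment ran over all tested genes, at a threshold of 0.05. Python 3.11.15, numpy 2.4.6 and pandas 2.3.3 prepared the tables and matplotlib 3.10.9 the plots. The code was tested on simulated data.

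The tumors, gene lists and tests were chosen with earlier results of these data known. Named genes were to be those of the score, Pecam1, the receptors and ligands, the largest called changes without overlap, the called or most abundant members of each list, the largest differences from other models, and Mki67, Car9, S100a8, S100a9, Csf3 and Cd274. As the 6-tumor fit called no coding gene, the rule of being called with the pooled spread with and without LEN tumor 4 was added after the values were seen and used in its place. Not all genes so covered are reported. Single list members outside the rule, namely Dll4, Unc5b, Col4a1, Cd68, Pdgfrb, Ndrg1, Hk2, Nos2, Ccr2, Foxp3, H2-K1, Epcam, Esr1, Egfl7, Nupr1, and Top2a, and the genes Lyz2, Cd83, Cx3cr1, Pld4, Tlr8, Hbegf, Socs3, Muc1, Igfbp3, Cd93, Cd200r3 and the mast cell genes other than Mcpt1, were chosen after their values were seen. Alternatives were TPM as deposited, median ratio or upper quartile scaling, 0.1 as the pseudocount, 0 or 5 in place of the minimum mean, no trend, and leaving out each tumor in turn. No tumor of 4T1 was left out of the analysis.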

Additional observations from a re-analysis of the deposited data

Results flagged for a closer look

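The 24 genes given here had a change from NT to LEN in 4T1 that differed from the mean change of the other 11 models in the limma fit of 72 tumors, with a Benjamini-Hochberg adjusted p under 0.05 for the difference itself. Values are differences in log2 change (4T1 minus the others). The 8 largest called differences in each direction are included for protein-coding genes, with predicted genes and antigen receptor segments left out. The other genes were among those with the largest changes within 4T1. Outside that ranking, the small nucleolar RNA gene Gm24787 differed by 5.59 (adjusted p = 0.000474, and 0.00869 without LEN tumor 4). The processed pseudogene Gm9775 differed by -2.99 (adjusted p = 0.00985, and 0.0741 without that tumor). For both genes the number of reads behind the values is unknown.

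A first set kept an adjusted p under 0.05 without LEN tumor 4. Among genes lower in 4T1 were Lyz1, a lysozyme gene (-2.20, adjusted p = 0.000346, and 0.00202 without LEN tumor 4), Zbed6, a transposon-derived repressor (-2.30, adjusted p = 0.00126 and 0.0162), Tmem100, a membrane protein of endothelium and neurons (-1.76, adjusted p = 0.000194 and 0.0178), Lilra5, a leukocyte receptor (-1.40, adjusted p = 0.000284 and 0.0137) and Abcg3, a transporter (-1.18, adjusted p = 0.00123 and 0.0443). Lyz1 was at 4.41, 6.34 and 2.09 coding TPM in the NT tumors and 0.205, 0.919 and 0.353 in the LEN tumors, while the median change of the other models was 0.43. Zbed6 was listed at 0 in NT tumor 1 and in LEN tumors 2 and 4, so its groups overlapped.

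Among genes higher in 4T1 the same held for Wnt10a (1.25, adjusted p = 6.37e-06 and 0.000735), Errfi1 (1.07, adjusted p = 2.35e-05 and 0.00218), Syt12 (1.55, adjusted p = 0.000259 and 0.00276) and Acpp (1.38, adjusted p = 0.000255 and 0.00185). It held for Sectm1b, a secreted protein of the immunoglobulin fold (1.21, adjusted p = 0.000456 and 0.00337), Tmprss4, a serine protease of epithelium (1.14, adjusted p = 0.00386 and 0.0279), and Irx3, a homeobox gene (1.05, adjusted p = 0.000622 and 0.036). It held also for Gata2, a transcription factor of blood and endothelium (1.84, adjusted p = 0.000268 and 0.0292), for Cyb5rl, a reductase (1.78, adjusted p = 0.000613 and 0.0334), and for Mcpt1, a mast cell protease (2.30, adjusted p = 0.000816 and 0.00934). The groups of Gata2 overlapped, since LEN tumor 5 had 2.97 coding TPM against 2.24 to 3.58 in the NT tumors, while LEN tumor 4 had 24.3. Without LEN tumor 4 the difference of Gata2 was 1.21, and its change within 4T1 had an adjusted p of 0.135. The changes of Tmem100 and Cyb5rl within 4T1 had an adjusted p of 0.0517 and 0.0533 without that tumor. Those of Lyz1, Lilra5 and Sectm1b passed the rule but were not called under every scaling. Mcpt1 was at 9.49, 1.83 and 16 coding TPM in the NT tumors, 34.9, 45 and 63.4 in the LEN tumors and 20.9 to 42.6 in the treatment-naïve tumors. 1 of the other models had a larger rise of Mcpt1, 1 had a larger rise of Irx3 and 1 had a larger fall of Abcg3.

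The remaining genes did not pass without LEN tumor 4. Lower in 4T1 were Hist3h2ba, an H2B histone (-1.85, adjusted p = 0.00124, and 0.072 without that tumor), C1qtnf3 (-1.83, adjusted p = 0.00657 and 0.0506), Sfrp2, a secreted WNT inhibitor (-1.73, adjusted p = 0.0283 and 0.263), Rsc1a1 (-1.97, adjusted p = 0.0406 and 0.433) and mt-Co2, a subunit of cytochrome c oxidase (-1.59, adjusted p = 0.00245 and 0.212). Higher were Moxd1 (1.50, adjusted p = 0.00903 and 0.21), Myo1h (1.47, adjusted p = 0.00323 and 0.24) and Slc24a3, an ion exchanger (1.61, adjusted p = 0.0012 and 0.109). Exosc6, a subunit of the RNA exosome, differed by 2.21 (adjusted p = 0.018) through 97.8 coding TPM in LEN tumor 4, was listed at 0 in the other tumors of 4T1 and had no test without that tumor. The part of the composition of LEN tumor 4 in these values was not tested.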

How the results depend on the processing

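No paired analysis was possible because the NT tumors are numbered 1, 2 and 3 and the LEN tumors 2, 4 and 5, so that a single number is shared. The MVD gene score fell with the same side of the threshold under every alternative, from -0.81 without Eng to -0.54 with median ratio scaling, and from -0.69 to -0.65 with 1 tumor left out. Its difference from the other models was -0.059 with TPM as deposited. Counts of called genes depended on the fit, the scaling and LEN tumor 4. In the 6-tumor fit the 2 lower genes became 1 as deposited (Hba-a2) and 0 with median ratio or upper quartile scaling, no minimum or a minimum of 5, and ranged from 0 to 11 with 1 tumor left out. The higher genes ranged from 1 to 4. With the pooled spread, 2242 were lower and 1546 higher, or 393 and 322 without LEN tumor 4. The same counts were 2748 and 488 as deposited (141 and 260 without LEN tumor 4), 1497 and 2501 with median ratio scaling (345 and 500) and 3484 and 925 with upper quartile scaling (788 and 186). Settings with the pooled spread, other than the first, were added after the data were seen. The count of genes lower in 4T1 than in the other models was 2393 as deposited, 2734 with upper quartile scaling and 1125 with median ratio scaling, and 144 to 2765 with 1 tumor left out. The higher count was 300, 676 and 1961 in the same order, and 185 to 1653 with 1 tumor left out, so that more genes were higher than lower with median ratio scaling and without LEN tumor 4.

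Some named genes without a call changed sign. Without LEN tumor 4 and with the pooled spread the changes were 0.12 for B2m, -0.22 for Col1a1, 0.18 for Flt1, 0.059 for Krt8, 0.46 for S100a8 and 0.017 for Spp1. As deposited, Eng was at -0.14, Krt18 at -0.14 and Pdgfra at -0.029, with upper quartile scaling Eng was at -0.066 and Krt18 at -0.059, and with median ratio scaling Fgfr1 was at 0.013 and Flt1 at 0.030. With 1 tumor left out, the change ranged from -0.58 to 0.12 for B2m, -0.22 to 0.50 for Col1a1, -0.023 to 0.12 for Eng, -0.23 to 0.19 for Fgfr1, -0.15 to 0.18 for Flt1, -0.036 to 0.13 for Krt18, -0.23 to 0.059 for Krt8, -0.0031 to 0.32 for Pdgfra, -0.23 to 0.10 for Plvap, -0.74 to 0.46 for S100a8, -0.30 to 0.76 for S100a9, -0.37 to 0.017 for Spp1 and -0.67 to 0.046 for Tek. The cause of these shifts was not tested. Depth is unknown, so the precision of genes near 0 cannot be given.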

Other observations

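The genes in these paragraphs were picked after their values were seen, and their values are a description. Beyond the macrophage list, several other myeloid genes fell in the LEN tumors of 4T1. Lyz2, which encodes the lysozyme of macrophages and neutrophils, was at 1533, 1500 and 2148 coding TPM in the NT tumors and 613, 598 and 596 in the LEN tumors, a change of -1.50 (SE 0.23, limma adjusted p = 1.92e-05). The LEN tumors were nearly equal to each other, below all NT tumors and within the treatment-naïve tumors, which had 773, 657 and 456. In the other models the median change of Lyz2 was -0.33, and the difference of 4T1 from their mean was -1.40 (limma adjusted p = 0.000175, and 0.0025 without LEN tumor 4). Cd83, a surface protein of activated antigen-presenting cells, was at 10.9, 10.9 and 13 against 4.11, 2.43 and 4.66, a change of -1.44 (SE 0.23, limma adjusted p = 2.53e-05). Its difference from the other models was -1.39 (limma adjusted p = 0.000157, and 0.00871 without LEN tumor 4). Cx3cr1, the fractalkine receptor of monocytes and macrophages, was at 60.3, 64.4 and 90.2 against 32.3, 20.7 and 20 and fell by 1.53 (limma adjusted p = 0.000996). Pld4, a phospholipase of myeloid and plasmacytoid dendritic cells, fell by 1.22 (limma adjusted p = 0.000316), and Tlr8, a receptor for RNA in endosomes, fell by 1.13 (limma adjusted p = 0.00603), although Tlr8 was not called under every scaling. In all 5 genes each LEN tumor was below each NT tumor.

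Other genes rose. Hbegf, a ligand of the EGF receptor, was at 80.4, 66.3 and 66.9 against 115, 107 and 122, a rise of 0.68 (SE 0.18, limma adjusted p = 0.00545). Socs3, a feedback inhibitor of cytokine signaling, was at 86.2, 78.1 and 75.9 against 121, 146 and 144, a rise of 0.77 (SE 0.19, limma adjusted p = 0.00356) that was not called under every scaling. Muc1, an epithelial mucin, was at 2.99, 2.44 and 2.31 against 5.93, 4.01 and 7.47, a rise of 0.90 (SE 0.25, limma adjusted p = 0.00859), which had an adjusted p of 0.0504 without LEN tumor 5. None of these overlapped. Of the mast cell and basophil genes examined beside Mcpt1, Cd200r3, an activating receptor, rose by 1.07 (limma adjusted p = 0.00921), but was not called under every scaling or without NT tumor 2 (adjusted p = 0.0819). The proteases Mcpt2, Mcpt4, Cma1 and Tpsb2 overlapped between groups, with adjusted p-values of 0.194, 0.128, 0.0944 and 0.363. Hdc, the enzyme that makes histamine, was at 14.8, 5.59 and 6.15 against 15.5, 25.9 and 24.8, with an adjusted p of 0.00594, and of 0.0759 without LEN tumor 4.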
